A study of Mus musculus with 54 samples.

Results

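The 6 striatum libraries with the highest and the 6 with the lowest level of Foxj1, out of 18 striatum libraries and 54 libraries in all, were compared for the genes of motile cilia. The groups were chosen by Foxj1 itself: the 18 libraries were ranked by the raw Foxj1 count scaled to the total count on genes (CPM, counts in 1000000), with spike-in rows left out, and both genotypes were pooled. Every gene of that striatal contrast was read from the libraries that Foxj1 had selected, so those values are a description with no test. Tests were run only on what the ranking did not use, which is the cortex and cerebellum of the same mice, the genotypes, and the differences between regions.

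Foxj1 encodes the forkhead transcription factor that switches on motile cilium genes, and in the adult brain it marks the ependymal cells that line the ventricles, whose beating cilia move cerebrospinal fluid. A motile cilium is built on an axoneme of microtubules with outer and inner dynein arms as motors, radial spokes and a central pair that control them, nexin-dynein links, and proteins inside the microtubules. RFX transcription factors act with Foxj1 on these genes, whereas intraflagellar transport and BBSome genes also serve the immotile primary cilia of neurons and glia. The lateral ventricle lies against the striatum, and its choroid plexus, a secretory epithelium, is another source of ciliated cells close to the tissue.

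The study sequenced RNA from cerebellum, cortex and striatum of 8-week-old mice on a C57BL/6 background, 10 heterozygous for a gene trap in the second intron of Mbd5 (Mbd5+/GT) and 8 wild-type (WT) mice from the same 3 litters. The gene trap sits in every cell of the animal and leaves a hypomorphic allele (the sample labels call these mice heterozygous for a deletion), so the mutant mice keep reduced Mbd5 expression. Each mouse gave 1 library per region and is named by its label, such as M754. All mice of litter 1 were female and all of litter 2 male, so litter and sex cannot be told apart between them. The high Foxj1 group held 4 Mbd5+/GT and 2 WT mice (4 females, 2 males; 4 from litter 1 and 2 from litter 2), and the low group 3 Mbd5+/GT and 3 WT mice (4 females, 2 males; 1 from litter 1, 1 from litter 2 and 4 from litter 3), so litter 3 gave no high library and litter and group can be told apart only within litters 1 and 2.

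Depth was similar, with 27807284 to 31871409 counts on genes in the high libraries and 27168148 to 28728843 in the low ones. The targeted gene, Mbd5 (chr2:48949508-49325405, GRCm38; its exons share 136 bases with Orc4), measured 26.7 to 41.3 TMM-normalized CPM in the 10 Mbd5+/GT striatum libraries and 36.3 to 62.2 in the 8 WT ones. The WT value of 36.3 belonged to M761, the library highest in Foxj1. Several libraries stood apart. The striatum library of WT M754, in the low group, went against its label: Drd2, the dopamine receptor of striatal projection neurons, was at 2.85 CPM there against 17.5 to 212 in the other 17, and its 15 striatal projection neuron genes summed to 622.9 CPM against 1120 to 10970. Values without this library are given beside the results that rest on it. M761, the library highest in Foxj1, was the next lowest, with 17.5 CPM of Drd2 and a sum of 1120 CPM. Drd2 reached 41.5 CPM in the cortex libraries. M761 also had the highest summed septum and hypothalamus genes (264.8 CPM). The next lowest sums of striatal projection neuron genes were those of M763 in the high group (2123 CPM) and M756 in the low group (2345 CPM). The library of M764, in the high group, had 14.4 CPM of Slc17a7, the vesicular glutamate transporter of cortical neurons, where the other 17 had 144 to 1080. The 2 striatum libraries labelled rep (WT M751, between the groups, and M752, in the low group) were used as they are.

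Promoters of 3 genes of the program are printed because motile cilium genes are the program that Foxj1 marks and RFX sites are the sequence element best known in their promoters. Dnali1 (an axonemal dynein light intermediate chain) and Ccdc40 (a ruler protein that sets the spacing along the axoneme) came first by likeness to Foxj1 among the listed genes with a mean of at least 1 CPM, and Ccdc153, an ependymal marker, was added after its values were seen. Each window runs from 250 bases before the RefSeq start of the gene to 50 bases after it on its own strand. Foxj1 itself is named only. Capitals mark matches to 1 of 3 motifs searched on both strands: the short RFX motif GTTGCC (reverse GGCAAC), the longer RFX motif GTTNCCATG (reverse CATGGNAAC, added after the first promoter was seen; it overlaps GTTGCC where N is G), and the forkhead motif GTAAACA (reverse TGTTTAC).
Dnali1, GRCm38.p6, chr4:125065608-125065907, minus strand: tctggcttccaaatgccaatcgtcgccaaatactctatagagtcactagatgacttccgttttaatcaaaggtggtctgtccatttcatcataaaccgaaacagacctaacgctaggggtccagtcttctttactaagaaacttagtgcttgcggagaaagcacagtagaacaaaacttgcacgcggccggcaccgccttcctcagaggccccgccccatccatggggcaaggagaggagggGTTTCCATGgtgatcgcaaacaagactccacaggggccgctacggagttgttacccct
Ccdc40, GRCm38.p6, chr11:119228322-119228621, plus strand: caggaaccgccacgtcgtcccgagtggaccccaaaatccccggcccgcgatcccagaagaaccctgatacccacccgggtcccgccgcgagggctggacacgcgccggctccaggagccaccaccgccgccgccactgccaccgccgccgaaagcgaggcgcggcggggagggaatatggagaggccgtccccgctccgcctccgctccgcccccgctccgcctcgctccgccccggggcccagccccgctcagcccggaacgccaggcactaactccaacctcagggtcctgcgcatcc
Ccdc153, GRCm38.p6, chr9:44240427-44240726, plus strand: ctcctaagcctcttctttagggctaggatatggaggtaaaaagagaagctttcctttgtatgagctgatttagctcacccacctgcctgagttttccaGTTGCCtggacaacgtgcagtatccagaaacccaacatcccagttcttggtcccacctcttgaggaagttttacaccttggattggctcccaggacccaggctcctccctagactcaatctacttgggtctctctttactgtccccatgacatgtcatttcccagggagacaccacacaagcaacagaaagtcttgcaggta

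Dnali1 held 1 match to the longer RFX motif, Ccdc153 held 1 GTTGCC, and Ccdc40 held none of the 3 motifs. Over the 111 genes of the ependymal program with a RefSeq promoter, 49 (44.1%) held GTTGCC, beside 12.5% of all 32851 promoters of the same length. The longer RFX motif was found in 10 (9.01%) of them and in 1.93% of all promoters, and the forkhead motif in 8 (7.21%) and in 3.65%. Of the 23 intraflagellar transport and BBSome promoters, 10 (43.5%) held GTTGCC and 0 the forkhead motif. Of the 11 choroid plexus promoters, 4 (36.4%) held GTTGCC and 0 the forkhead motif. The lists took 1 promoter per gene symbol, and the share of all promoters counted every entry. A match is a run of letters and was not read as a bound site.

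Foxj1 (chr11:116330704-116335399, minus strand, GRCm38) was ranked over the 18 striatum libraries. In raw CPM, the 6 high libraries measured 27.67 (WT M761), 25.24 (WT M762), 24.69 (Mbd5+/GT M758), 20.86 (Mbd5+/GT M764), 18.99 (Mbd5+/GT M767) and 18.01 (Mbd5+/GT M763). The 6 low libraries measured 12.91 (Mbd5+/GT M768), 12.60 (WT M757), 12.45 (WT M752), 12.04 (Mbd5+/GT M760), 9.88 (WT M754) and 8.95 (Mbd5+/GT M756). The limits of the groups fell between close values. The library just inside the high group had 18.01 and the next one outside it 17.56 (Mbd5+/GT M755), and the library just outside the low group had 14.10 (Mbd5+/GT M766) against 12.91 inside it.

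After TMM normalization the high group spanned 17.0 to 26.2 CPM (median 22.7) and the low group 9.14 to 14.2 (median 12.4), a mean difference of 0.91 on the log2 scale, or 1.88-fold (SD 0.23 in the high and 0.26 in the low group, n = 6 each). Ranking on TMM-normalized CPM instead kept 5 of the 6 high and 5 of the 6 low libraries.

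**Figure D1:**
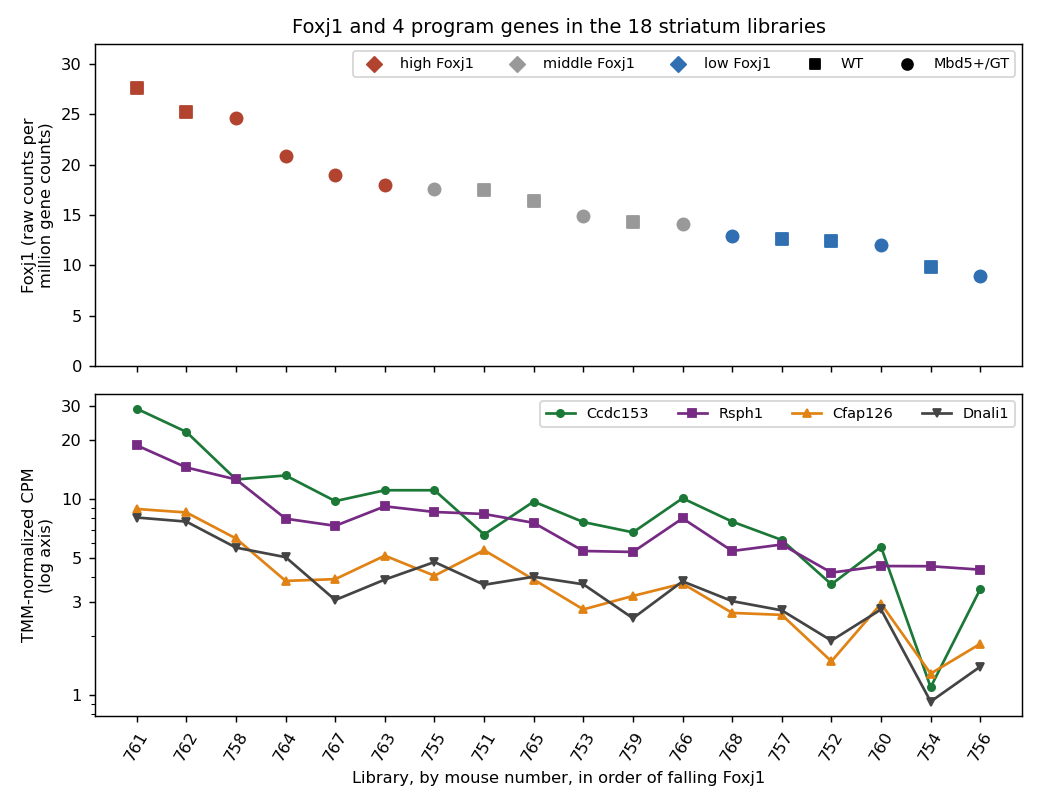
Foxj1 (top, raw CPM) and 4 program genes (bottom, TMM-normalized CPM, log axis) in the 18 striatum libraries, ordered by falling Foxj1 and named by mouse; colours in the top panel mark the groups and shapes the genotypes. Foxj1 falls from 27.67 to 8.95 in small steps, and Ccdc153 falls from 28.9 to 1.1 CPM at its lowest, in M754.

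The motile cilium genes moved with Foxj1 as a group. Of 138 other listed genes of the ependymal program found in the table, 134 passed the filter on low counts, and 124 of them had a higher mean in the high libraries. Their median difference was 0.88 (log2), against -0.01 over all 18546 genes that passed, and 63 of the 134 exceeded 1 on the log2 scale. In 31 of the 134 every high library lay above every low one and in 0 every high library lay below, beside 0.545% of all genes in the first direction (101 genes) and 0.0971% in the other (18 genes). The ranking used these libraries, so nothing is read from the counts beyond their size.

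Of the 12 libraries left out in turn, M767 changed the count of genes that separated the groups most. In the library of Mbd5+/GT M767 the 134 genes summed to 862.9 CPM, level with the highest low library (863.7 CPM, M757), while the other 5 high libraries summed to 986.7 to 1316 CPM and the other 5 low ones to 713.4 to 791.7. Without M767, 65 of the 134 genes separated the groups, with 1.48% of all genes. Without M754, 33 separated, with 0.82% of all genes, and the median difference was 0.97. Within litter 1, with 4 high libraries and 1 low one, the median difference was 1.07, and within litter 2, with 2 high libraries and 1 low one, it was 0.35.

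Among the regulators, Foxj1 had the only pair of groups that did not overlap. Trp73, a transcription factor upstream of multiciliogenesis, measured 1.38 to 5.47 CPM in the high libraries (median 4.48) and 0.455 to 3.05 in the low ones (median 1.23). The groups overlapped, with the high M767 (1.38) below the low M760 (1.52) and M754 (3.05), and the high M764 (2.50) below M754. Ccdc78 and Deup1, which help multiply basal bodies in cells with many cilia, differed by 1.57 and 1.60 (log2), again with overlap. Rfx2, an RFX partner of Foxj1, differed by 0.44 and Rfx3 by 0.07, Myb by 0.81, and Gmnc, an early switch of the multiciliated fate, by 1.81 with values from 0 to 4.69 CPM. Gmnc was at 1.91 to 4.69 CPM in M762, M758, M763 and M751, the libraries highest in choroid plexus genes. In the other striatum libraries, M761 among them, it was at most 0.59 CPM. Ccno (0.15) and Mcidas (-0.31) showed differences inside the spread of the libraries, Mcidas at 0 to 0.580 CPM over both groups. Cdc20b and Foxn4 did not pass the filter.

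The 22 dynein arm genes that passed had a median difference of 0.78, and 4 separated the groups: Dnali1, Dnah9, Dnaic2 and Dnah7c. Dnali1 measured 8.06, 7.68, 5.66, 5.06, 3.06 and 3.89 CPM in the high libraries (in order of falling Foxj1) and 3.02, 2.71, 1.90, 2.74, 0.929 and 1.40 in the low ones, a 2.63-fold difference. All high values lay above all low ones, closest between M767 and M768. Smaller differences were found for the 3 most abundant members: Dnah1, an inner arm heavy chain, differed by 0.50, Ccdc151, a docking protein of the outer arm, by 0.17, and Dnal1, an outer arm light chain, by 0.01. Dnah5, the outer arm heavy chain best known from primary ciliary dyskinesia, measured 2.87 to 7.17 CPM in the high and 1.66 to 4.76 in the low libraries, so the groups overlapped.

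Dynein assembly factors, which fold dynein arms in the cytoplasm, had a median difference of 0.06 over 9 genes, with 1 that separated the groups, Dnaaf3 (1.18). Zmynd10 differed by 0.62, Dnaaf5 by 0.06 and Spag1 by 0.04. The assembly list as a whole therefore sat near the median of all genes, unlike the arms its products build.

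Radial spoke and central pair genes had a median difference of 0.77 over 21 genes, and 4 separated the groups (Rsph1, Rsph14, Dnajb13, Cfap221). Rsph1, a spoke head protein, measured 18.8, 14.5, 12.6, 7.95, 7.31 and 9.19 CPM in the high and 5.44, 5.87, 4.22, 4.56, 4.55 and 4.37 CPM in the low libraries, 2.28-fold apart. The high libraries of litter 1 (all female) lay above those of litter 2 (all male). Spag6, a central pair protein, went the other way (-0.95), with 0.440 to 1.57 CPM in the high and 1.08 to 3.12 in the low libraries. Rsph9 (0.39), Cfap74 (0.28) and Spef1 (0.02) were the most abundant members.

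The nexin-dynein regulatory complex and ruler genes had a median difference of 0.49 over 10 genes, and all 10 means were higher in the high group. Drc7 measured 9.55, 17.0, 19.7, 6.61, 4.29 and 9.63 CPM in the high and 1.78, 2.61, 0.745, 3.30, 0.996 and 2.04 CPM in the low libraries, a 5.58-fold difference. Its groups did not overlap. Ccdc40, with a Pearson r of 0.89 with Foxj1, differed by 0.87 and overlapped only through the high library of M767 (3.58 CPM), which lay below the low libraries of M757 (3.82) and M752 (3.77). Drc1, Ccdc39 and Gas8 were the most abundant genes of the list, and their groups overlapped.

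Of the cilia and flagella associated proteins, all 21 had a higher mean in the high group, with a median difference of 1.11, and 7 separated the groups (Cfap43, Cfap57, Cfap73, Cfap77, Cfap126, Cfap161, Maats1). Cfap126, which positions basal bodies, measured 8.91, 8.55, 6.30, 3.83, 3.91 and 5.15 CPM in the high and 2.63, 2.57, 1.49, 2.93, 1.29 and 1.83 CPM in the low libraries, 2.78-fold apart. Cfap65, at 12.2 to 33.6 against 4.31 to 14.0 CPM, overlapped at the edge. Cfap69 and Cfap300 were the other abundant members, and their groups overlapped. Microtubule inner proteins had a median difference of 1.09 over 15 genes. Tekt1, Efcab1, Enkur and Mns1 separated the groups, whereas the abundant Tppp3 and Nme7 overlapped.

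Ependymal identity genes showed the largest list median of the program, 1.30 over 27 genes, with 9 that separated the groups (Ccdc153, Dynlrb2, Sntn, Meig1, Ak7, Pifo, Odf3b, Lrrc23, Wdr63). Ccdc153, an ependymal marker, measured 28.9, 22.0, 12.6, 13.2, 9.77 and 11.1 CPM in the high and 7.68, 6.19, 3.68, 5.71, 1.1 and 3.48 CPM in the low libraries, 3.73-fold apart. The lowest value was that of M754. Pifo, a cilium disassembly gene, was 4.04-fold and Odf3b 3.60-fold apart, both without overlap. Rarres2, the chemerin precursor, measured 13.7 to 39.4 CPM in the high and 4.42 to 15.1 in the low libraries. Prom1 (-0.16) and Cd24a (0.31), which other cells of the brain also express, showed overlapping groups.

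Among genes with a mean of at least 1 CPM, the 10 most like Foxj1 over the 18 striatum libraries (Pearson r in log2 CPM) were Dnali1 (0.91), Ccdc40 (0.89), Odf3b, Lgals3 (both 0.88), Rsph1, Wdr93, Cfap126, Ccdc153 (all 0.87), Rarres2 and Ubxn10 (both 0.86). Below that mean, Cfap221 (0.91) and Morn3 (0.90), named after their values were seen, had an r as high. Lgals3 and Wdr93 were on no list, nor was Ubxn10. These libraries share their dissection and the ranking, so the r values carry no p. In the cortex of the same mice, whose libraries were not used for the ranking, all 10 again had a positive r with Foxj1 of cortex, from 0.62 (Ccdc40) to 0.85 (Dnali1). Over the 129 program genes that passed in cortex the median r with Foxj1 was 0.54, and 72 exceeded 0.5, beside 2.58% of all genes in cortex. In cerebellum, 9 of the 10 had a positive r and Odf3b had -0.52. Over the 126 program genes that passed there the median r was 0.59, and 73 exceeded 0.5, beside 23.4% of all genes in cerebellum. The cerebellum libraries of M754 and M755 stood apart in Foxj1. In cortex, M758 and M766 stood apart, with 10.5 and 9.92 CPM of Foxj1 against at most 7.45 in the others. Their Ccdc153 was at 6.67 and 5.58 CPM, against at most 2.51. The r values were not taken without these libraries.

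**Figure D2:**
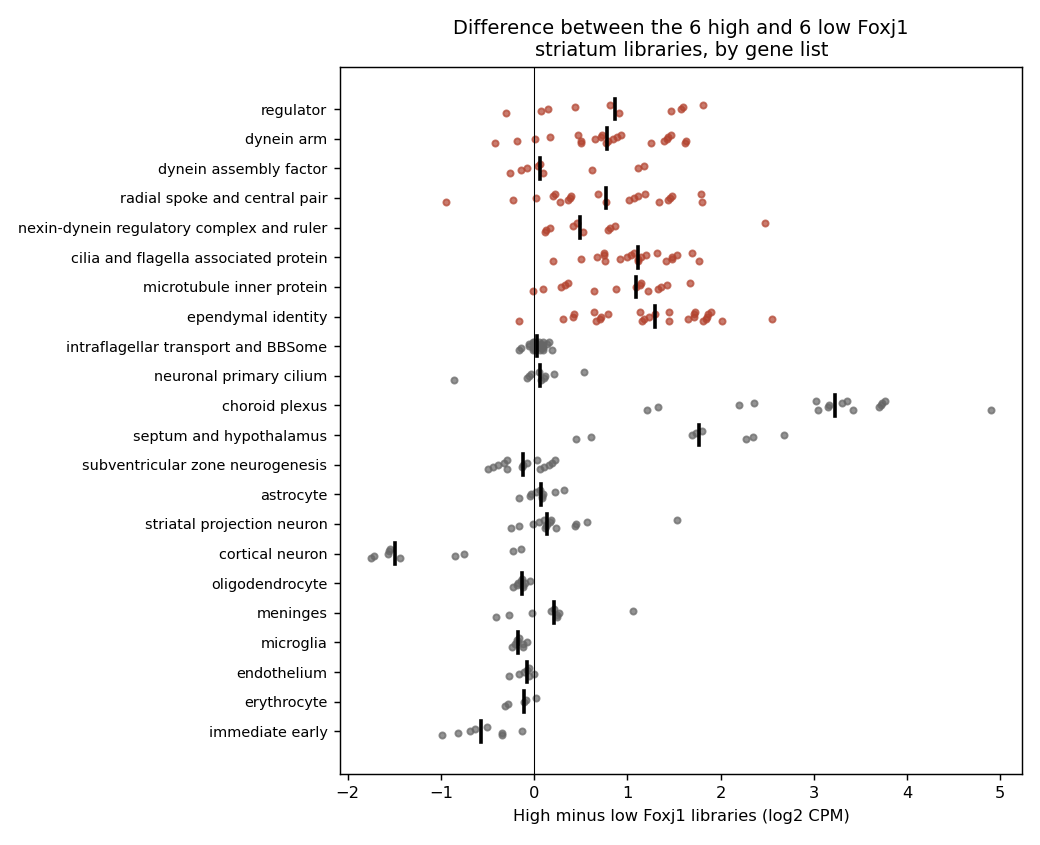
Difference in mean log2 CPM between the 6 high and the 6 low Foxj1 striatum libraries for every gene of 22 lists that passed the filter (points; program lists in red, other lists in grey), with the list median as a bar. Bars of the program lists lie between 0.06 (dynein assembly factors) and 1.30 (ependymal identity), choroid plexus genes lie at 3.23 and cortical neuron genes at -1.50.

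The lists of primary cilium genes had medians near that of all genes. The 26 intraflagellar transport and BBSome genes had a median difference of 0.03, with a range of -0.16 to 0.19, and 0 of 26 separated the groups. Their summed level was 892.1 to 962.1 CPM in the high and 880 to 931.8 CPM in the low libraries. The most abundant were Ift172, Bbs4 and Ift22. The 10 genes of neuronal primary cilia had a median of 0.06, with a range of -0.86 to 0.54, and 0 of them separated the groups.

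Choroid plexus genes were highest in 4 libraries, of which 3 were in the high group. All 16 had a higher mean in the high group, with a median difference of 3.23, and Kcne2 and Folr1 separated the groups. Ttr, the transthyretin that choroid plexus epithelium secretes, measured 472, 3800, 3820, 191, 131 and 2510 CPM in the high and 13.1, 37.5, 7.58, 175, 25.2 and 35.7 CPM in the low libraries. The groups overlapped, since the high M767 (131) lay below the low M760 (175), and M764 (191) lay just above M760. WT M751, at rank 8 between the groups, had the highest Ttr of all 18, 5970 CPM. The summed choroid plexus level was 483.9 to 6625 CPM in the high and 276.8 to 618.8 CPM in the low libraries. Of the 12 genes with the largest positive difference, 10 were on that list (Ttr, Prlr, Tmem72, Slc4a5, Kcne2, Folr1, Kcnj13, Kl, Otx2, Sostdc1), and Mfrp and Cldn2 were the other ones. Sostdc1 was at 0 in 1 low library.

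Ependymal and choroid plexus levels were high together in some libraries but did not have the same order. M762, M758 and M763 had 5611, 6625 and 3887 CPM of choroid plexus genes and 1262, 1172 and 1164 CPM of the program. M751 had 8229 CPM of choroid plexus genes and 905.1 CPM of the program. M764 had less of the first, 560.6 CPM, and more of the program, 986.7 CPM. The part of choroid plexus RNA in the program differences was not tested. In bulk tissue, fewer cells of a type and less RNA per cell cannot be told apart.

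**Figure D3:**
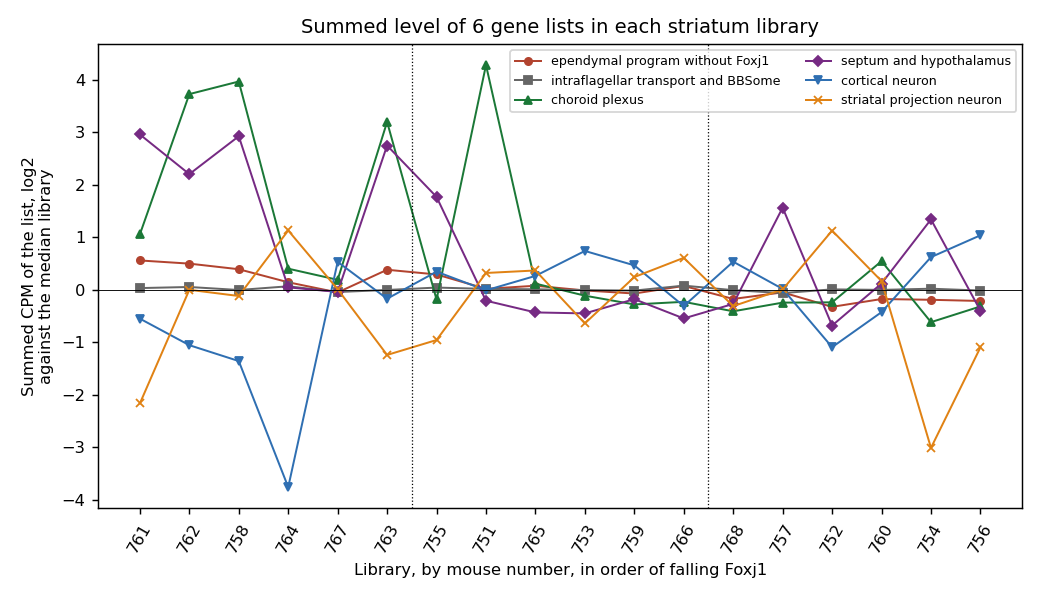
Summed CPM of 6 gene lists in each of the 18 striatum libraries, as log2 against the median library, ordered by falling Foxj1; dotted lines mark the limits of the groups. The program is highest in M761 (1316 CPM, at the left) and lowest in M752 (713.4 CPM, at rank 15), with M767 (862.9 CPM) below its neighbours, choroid plexus genes peak in M762, M758, M763 and M751, and striatal neuron genes are lowest in M754 (622.9 CPM).

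Genes of neighbouring regions also differed. The septum and hypothalamus list had a median difference of 1.77, and all 8 of its 11 genes that passed had a higher mean in the high libraries. Zic1, a transcription factor of the septum, measured 156, 96.9, 116, 19.8, 16.7 and 153 CPM in the high and 13.5, 64.4, 11.1, 19.1, 36.4 and 11.3 CPM in the low libraries. The 4 high libraries of litter 1 (all female) lay at or above 96.9 CPM and the 2 of litter 2 (all male) at or below 19.8 CPM. The summed level of the list was 33.2 to 264.8 CPM in the high and 21.3 to 100.8 CPM in the low libraries. Agrp, Hcrt and Sim1, defining markers of the hypothalamus, did not pass the filter.

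Cortical neuron genes had lower means: 0 of 10 had a higher mean in the high libraries, the median difference was -1.50, and 0 separated the groups. Their sums were 63.0 to 1231 CPM in the high and 399.5 to 1748 CPM in the low libraries, with the lowest in M764. Slc17a7 differed by -1.56 and Tbr1 by -1.71. Immediate early genes, which rise with neuronal activity, had a median of -0.57 (Arc -0.99, Nr4a1 -0.68, Egr1 -0.63). The part of septal and cortical tissue in the program differences was not tested.

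For the other cells of a striatal dissection, median differences were 0.14 for striatal projection neurons, 0.07 for astrocytes, -0.12 for neurogenesis genes of the subventricular zone, -0.13 for oligodendrocytes, -0.17 for microglia, -0.07 for endothelium, -0.11 for erythrocytes and 0.21 for meninges, and 0 genes of these lists separated the groups. Larger differences were held by 1 striatal projection neuron gene, Isl1 (1.53, named after its values were seen), and 1 meninges gene, Igf2 (1.06), both with overlap. The most abundant astrocyte genes, Slc1a2, Aldoc and Slc1a3, overlapped fully.

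Outside the lists, 67 further genes separated the groups upwards and 18 downwards. They included Cdhr4, Tctex1d4, Gas2l2, Lrrc36, Ankrd66, Fam47e, Nme9, Akap14 and Mapk15 among the higher ones. The lower ones, named like these after their values were seen, included Cyp11a1 (-1.09), a steroid synthesis enzyme. Among the genes with the largest negative differences, Dkkl1 (-1.95) and Krt80 (-1.87) overlapped, and Eno1b and Gm4735 were below 1 CPM in every high library and in 4 low ones but at 30.8 to 34.3 and 14.8 to 16.2 CPM in the other 2. Gm11549, 9130024F11Rik and Ighg2c were also among them.

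Whether mice grouped by striatal Foxj1 also differed in their other regions was tested on cortex and cerebellum libraries, which the ranking did not use. In cortex, Foxj1 measured 3.89 to 10.5 CPM in the 6 mice of the high group (median 5.62) and 4.92 to 6.74 CPM in the 6 of the low group (median 5.25). The groups overlapped in full. The mean difference was 0.12 (log2), with an exact 2-sided permutation test over 924 divisions giving p = 0.632, where the smallest p the design allows is 0.00216. In cerebellum, Foxj1 measured 3.77 to 11.2 CPM (median 5.98) in the high group and 3.94 to 22.4 CPM (median 6.74) in the low group, a difference of -0.20 (exact permutation p = 0.68). The value of 22.4 belonged to M754, and without it the difference was 0.11 (exact permutation p = 0.708).

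Across the 18 mice, Foxj1 of striatum and of cortex had a Pearson r of 0.11 (p = 0.68) and a Spearman rho of 0.12 (p = 0.632), and striatum and cerebellum had r = -0.10 (p = 0.684) and rho = -0.05 (p = 0.837), from 100000 permutations each. Benjamini-Hochberg adjustment over the 2 relations gave 0.684 for both Pearson values and 0.837 for both Spearman values. Without the 2 mice farthest from the median of striatal Foxj1 (M754 and M756), r was 0.19 and 0.18. Within litters 1, 2 and 3, of 6, 5 and 7 mice, r was 0.31, 0.05 and 0.23 for cortex and 0.55, -0.66 and -0.03 for cerebellum.

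**Figure D4:**
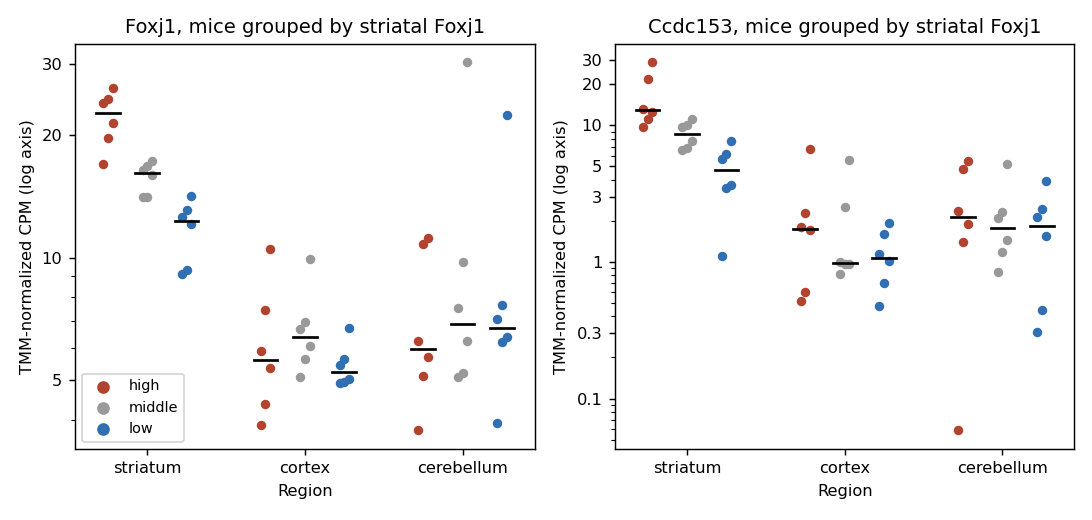
Foxj1 (left) and Ccdc153 (right) in TMM-normalized CPM (log axis) in striatum, cortex and cerebellum of the 18 mice, grouped by the Foxj1 rank of their striatum; points are libraries and bars medians of 6. The groups separate in striatum, where they were chosen, and overlap in cortex (Foxj1 3.89 to 10.5 against 4.92 to 6.74 CPM) and cerebellum.

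Over all genes, edgeR's quasi-likelihood test called 0 of 18402 genes in cortex between the mice of the high and low groups (0% at an adjusted p under 0.05), while 783 (4.25%) had an unadjusted p under 0.05. DESeq2 called 3 there, Eno1b, Tmem150b and CT010467.1, all lower in the high group and none on a list. Of 129 program genes tested in cortex, 10 had an unadjusted p under 0.05, all higher in the high mice, namely Dynlrb2, Pifo, Nek5, Sntn, Ak7, Calml4, Cfap126, Tekt4, Fam166b and Tppp3. None held after adjustment (adjusted p = 0.803 for each of the 10 by edgeR). The program median was 0.26, with 104 of 129 positive, beside -0.003 over all genes. M758 of the high group had the highest cortex values of Foxj1 (10.5 CPM), Ccdc153 (6.67 CPM) and Ttr (1160 CPM). Without M758 the Foxj1 difference in cortex was -0.047, and the program values were not taken without this mouse. Choroid plexus genes of cortex had a median of 1.06, with 15 of 16 positive and 0 called, and their part in the program median was not tested. In cerebellum edgeR called 0 of 18151 genes and 108 (0.595%) had an unadjusted p under 0.05; DESeq2 called 0, and the program median was 0.04 over 125 genes, with 0 of them past an unadjusted p of 0.05.

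The genotypes overlapped in Foxj1. It measured 9.14 to 24.0 CPM in the 10 Mbd5+/GT libraries (median 16.4) and 9.36 to 26.2 CPM in the 8 WT libraries (median 15.3), and their mean difference was -0.02 (log2; exact permutation p = 0.911 over 43758 divisions). Each range covered most of the other. With 4 surrogate variables as covariates, edgeR called 1 of 18546 genes (0.00539%), Mbd5 (-0.51, adjusted p = 9.41e-05), while 1380 (7.44%) had an unadjusted p under 0.05. Of the 134 program genes 0 were called and 1, Mns1 (0.32, unadjusted p = 0.0188, adjusted p = 0.629), passed unadjusted. Their median was 0.11 with 91 positive, and -0.02 with 60 positive without surrogate variables. Choroid plexus genes had a median of -1.24 in the same fit, with 0 of 16 positive and 0 called, and their part in the program values was not tested. DESeq2 with the same terms called 0 program genes. Without M754, the Foxj1 difference was -0.13 (exact permutation p = 0.516).

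The striatum as a region stood above the cortex and cerebellum in motile cilium genes, a comparison the ranking within striatum did not use. Over all 18 mice, Foxj1 measured 9.14 to 26.2 CPM in striatum (median 16.2), 3.89 to 10.5 CPM in cortex (median 5.65) and 3.77 to 30.2 CPM in cerebellum (median 6.32). The highest cortex libraries reached into the lower end of the striatal range. The cerebellum library of M755 (30.2) lay above every striatum library and that of M754 (22.4) above the striatal median. These 2 cerebellum libraries also had the highest Drd2 of their region (12.7 and 7.32 CPM, against at most 2.59) and the lowest Slc17a7 (40.8 and 210 CPM, against 257 to 498), and the part of other tissue in their Foxj1 was not tested. Foxj1 was higher by 1.38 ± 0.20 (log2, SE) than in cortex (edgeR adjusted p = 1.01e-07) and by 0.90 ± 0.20 than in cerebellum (adjusted p = 4.85e-05). The fit between regions held region and genotype, with no term for the mouse. With the mouse as a block, the Foxj1 differences were 1.38 (edgeR adjusted p = 9.95e-08) and 1.05 (edgeR adjusted p = 2.96e-06).

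Of the 134 other program genes, 97 were higher and 7 lower in striatum than in cortex, beside 28.8% and 30% of all 20477 genes tested, with a median difference of 0.80. Against cerebellum, 105 were higher and 13 lower, beside 37.2% and 38.1% of all genes, with a median of 1.45. Ccdc153 was higher by 2.43 ± 0.38 than in cortex (edgeR adjusted p = 4.86e-07) and by 2.15 ± 0.37 than in cerebellum (adjusted p = 8.34e-07). Of the ependymal identity genes, 23 of 27 were higher than in cortex (0 lower) and 22 of 27 were higher than in cerebellum (2 lower, Odf3b and Prom1).

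Some motile cilium genes were lower in striatum. Against cortex they were Rfx3, Spag6, Dnal1, Ccdc39, Cfap69, Cfap300 and Spag1. Against cerebellum they included Dnah11 (-2.87), Trp73 (-1.72), Dnah7b (-1.69), Spag1 (-1.61), Dnah6 (-1.47) and Hydin (-1.45), so that dynein heavy chains and a central pair gene were among them. Intraflagellar transport and BBSome genes split, with 9 higher and 10 lower than in cortex and 14 higher and 6 lower than in cerebellum. Of the 16 choroid plexus genes, 4 were called higher and 0 lower than in cortex, beside 28.8% and 30% of all genes. Their median difference from cortex was 1.17 (log2), with 15 of 16 positive. Against cerebellum, 0 were called higher and 1 lower, beside 37.2% and 38.1% of all genes. The median there was 0.13, with 8 of 16 positive. The part of choroid plexus RNA in the program differences between regions was not tested.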

How the data were processed

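RNA-seq counts of 54 libraries (striatum, cortex and cerebellum of 18 mice) were used. The deposited values are whole-number read counts per gene, not normalized; the authors aligned reads with STAR (2.4.2 in the submitters' processing notes, with FastQC 0.10.1) to GRCm38 and took gene counts from it. Which strand column was kept is not given in the sources used here, so genes that overlap another are uncertain, as are near-identical copies. The table held 47069 genes and 92 spike-in rows, which took 0.0207% to 0.728% of counts and were left out. Gene totals were 25295973 to 49027399 per library, so counting error was small beside the spread between mice for all but the lowest genes.

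Libraries were ranked by raw Foxj1 CPM. Levels are TMM-normalized CPM (edgeR 4.0.16, R 4.3.3), and differences are means of log2 CPM with a prior count of 2; genes needed over 4 counts in at least 8 libraries (6 in fits of 12). Tests were edgeR's quasi-likelihood test with robust dispersions and Benjamini-Hochberg adjustment, with 4 surrogate variables (sva 3.50.0) for genotype, DESeq2 1.42.0 as an alternative, and exact permutation tests for Foxj1 alone. The edgeR steps were tested on simulated counts with known changes. The members and lists were chosen with earlier results of these data known. Named genes were all regulators, the 3 most abundant members of every other list, the 12 largest positive and 8 largest negative differences and the 10 genes most like Foxj1 (both among genes with a mean of at least 1 CPM), genes that passed a test or had the smallest p, and Mbd5; any other gene, such as Drc7, Pifo, Dnah5 or those that separated the groups, was named after its values were seen. Some genes that the rule takes in are not reported here. Gene positions are GENCODE M21 on GRCm38; promoters are RefSeq on GRCm38.p6.

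Mouse numbers pair the regions, because each animal gave tissue from all 3. Deviations from group means correlated within a mouse, with a median of 0.08 for striatum and cortex and 0.03 for striatum and cerebellum, against -0.01 and 0.01 between different mice. The 73 pairs of striatum libraries of the same genotype differed by a chi-square of at least 21.9 per gene, so none was counted as a repeat of another.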

Additional observations from a re-analysis of the deposited data

Results flagged for a closer look

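Of 68 groups of 6 libraries tested, 10 held a library far from the other 5. The limit used flags about 1 in 20 only for independent values with a normal spread. These values were not on a log scale and some groups share genes, so 10 of 68 was not read against that share. In the low group of striatum, M760 was high in Ttr (175 CPM against 37.5 for the next) and in the summed choroid plexus genes (618.8 CPM against 359.5). Mouse M754 was high in summed subventricular zone neurogenesis genes (958.8 CPM against 692.8) and in meninges genes (248.7 against 100.3). Mouse M757 was high in summed regulators (81.68 against 62.18), and M752 was low in summed cilia and flagella associated proteins (42.1 against 73.13). In the high group of striatum, M758 was low in summed dynein assembly factors (50.83 against 54.61) and M767 was high in erythrocyte genes (419.2 against 126.9). In cortex, the high M758 had 6.67 CPM of Ccdc153 against 2.28 for the next. In cerebellum, the low M754 had 22.4 CPM of Foxj1 against 7.66.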

How the results depend on the processing

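The difference of the program medians between the groups (0.88) kept its direction in 21 alternatives and moved by more than 1 SD of the program mean in 1, within litter 2 (0.35). These alternatives ranked the same striatum libraries by Foxj1 or by genes of the program itself. They describe how the size depends on the settings and do not test the direction. The number of program genes that separated the groups depends on the group size by construction. It was 82 with 4 against 4 libraries, beside 2.49% of all genes, and 3 with 9 against 9, beside 0.0485%. It was 61, beside 1.2% of all genes, when libraries were ranked by ependymal identity genes. That ranking kept 5 of 6 high and 6 of 6 low libraries. It favours a higher count by construction, since these genes are part of the program. The number was 31 to 65 when each library was left out in turn, beside 0.566% to 1.48% of all genes, with 65 and 1.48% without M767.

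Leaving out each mouse in turn gave Foxj1 differences of -0.05 to 0.24 in cortex, with -0.047 without M758, and -0.39 to 0.11 in cerebellum, with 0.11 without M754 (exact permutation p from 0.31 to 0.866 and from 0.413 to 0.944). In cerebellum, 9 against 9 mice turned the sign (0.17), as did the correlation without the 2 farthest mice (0.18). DESeq2 called 3 genes in cortex against 0. These causes were not tested.

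With the mouse as a replicate block, 93 program genes were higher in striatum than in cortex, against 97 without it, and 106 higher than in cerebellum, against 105, so the replicate block changed neither count by much. In the comparison of genotypes, 0 program genes were called under all 9 alternatives, each of which used edgeR or DESeq2. With litter 2 left out, 17 of 134 had an unadjusted edgeR p under 0.05, 88 of the 134 were positive, and 0 of all genes were called. The share of all genes with an unadjusted p under 0.05 was not taken for that setting, so nothing is read from the 17. The alternatives without M754, with single libraries left out, and without the 6 highest striatum libraries were chosen after seeing the data. The last of these selects on Foxj1 and is a description: 73 program genes were higher than in cortex (26.4% of all genes) and 95 than in cerebellum (35.9%).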

Other observations

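Eno1b and Gm4735, 2 of the genes with the largest negative difference, were on or off by mouse, and the same mice had them on in all 3 regions. Eno1b measured 24.8 to 50.7 CPM in striatum, cortex and cerebellum of 5 mice (M751, M753, M756, M757 and M759) and 0.148 to 0.597 CPM in all 39 libraries of the other 13. Gm4735 measured 12.2 to 21.5 CPM in the same 5 mice and 0.205 to 0.783 CPM in the rest. Of these 5 mice, 4 came from litter 3 and 1 from litter 1, 2 were Mbd5+/GT and 3 WT, 2 were in the low Foxj1 group, 3 between the groups and 0 in the high group. Eno1b is a near-identical copy of an enolase gene, so its counts are uncertain. The pattern was seen in the data first and was not tested.

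Cerebellum libraries of M755 and M754 had the highest Foxj1 of that region, 30.2 and 22.4 CPM, together with its highest Drd2 (12.7 and 7.32 CPM) and lowest Slc17a7 (40.8 and 210 CPM), while their Ccdc153 was inside the range of the other cerebellum libraries.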
